A study of Homo sapiens with 26 samples.

Results

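The comparison described here is that of MCF10A cells treated with EGF and dexamethasone (DEX) together for 20 min against cells treated with EGF alone for 20 min, across all genes. It was taken by the array titles, which give 2 arrays to each treatment, so that 4 of the 26 arrays of the series are compared. MCF10A cells are a non-tumorigenic line of the human breast epithelium whose growth needs EGF. All cells were grown with EGF, hydrocortisone, insulin, cholera toxin and horse serum and were then starved overnight, so the untreated cells had also seen EGF and a glucocorticoid before starvation. EGF was given at 10 ng/ml and DEX at 100 nM. The other groups used for reference are 2 arrays of untreated cells at 0 min, 2 arrays of DEX alone at 20 min, and the EGF, DEX and EGF+DEX arrays at 40 and 60 min (2 each) and, for EGF and EGF+DEX, at 120 and 240 min (1 each). The labels tell replicates apart by number only, so p-values measure the spread between these samples, which may be technical.

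EGF activates EGFR, a receptor tyrosine kinase that signals through ERK to transcription factors already present in the cell, and immediate early genes such as FOS and EGR1 are transcribed within minutes. Feedback inhibitors of the pathway, among them the DUSP phosphatases, the Sprouty proteins and ERRFI1, follow. DEX is a synthetic glucocorticoid. It binds the glucocorticoid receptor (GR), which moves to the nucleus, binds DNA at glucocorticoid response elements and also acts on other transcription factors, and it can raise or lower transcription. The question put to the 20 min arrays is which transcripts DEX changes this early when EGF is present, and whether genes that EGF induces are already lower.

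The arrays, Affymetrix Human Exon 1.0 ST, measure transcripts exon by exon, through probesets of a few probes each. All levels below are gene values on the log2 intensity scale, from the deposited linear intensities, and all differences are log2 differences between group means with their standard error (SE) from a limma model of all 26 arrays. A gene was called when its adjusted p (Benjamini-Hochberg over 16600 genes) was under 0.05 and its difference was at least 1.5-fold. With 2 arrays against 2, an exact permutation test of a single gene cannot give a two-sided p below 0.333, and the test therefore rests on the spread shared by the 10 groups with 2 arrays.

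Medians of the 4 arrays lay between 5.28 and 5.35 and replicates correlated at 0.978 (EGF) and 0.981 (EGF+DEX) across genes. EGF+DEX replicate 2 had 61.1% of its probesets above background and the other 3 arrays 61.9% to 62.3%. The difference between the treatments moved with the intensity of the gene: in 5 equal bins of the genes by intensity, from dim to bright, its median was 0.11, 0.06, −0.07, −0.13 and −0.09. These medians were 0.14, 0.10, −0.10, −0.18 and −0.15 with EGF+DEX replicate 2 as the only EGF+DEX array and 0.08, 0.04, −0.04, −0.07 and −0.04 with replicate 1. For DEX alone against untreated cells they lay between 0.01 and −0.04. The median over all genes was −0.05. A small positive difference of a dim gene, or a small negative difference of a bright gene, is therefore what most genes of that intensity showed on these arrays. Of the 10 measured basal epithelial markers, 5 were higher and 5 lower, with a median difference of −0.0005. KRT14 had the lowest difference of these and read 10.83 and 10.77 with EGF and 10.59 and 10.61 with EGF+DEX. The 8 measured leukocyte and endothelial markers had array medians of 5.497 to 5.801, against a background of 4.65.

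**Figure D1:**
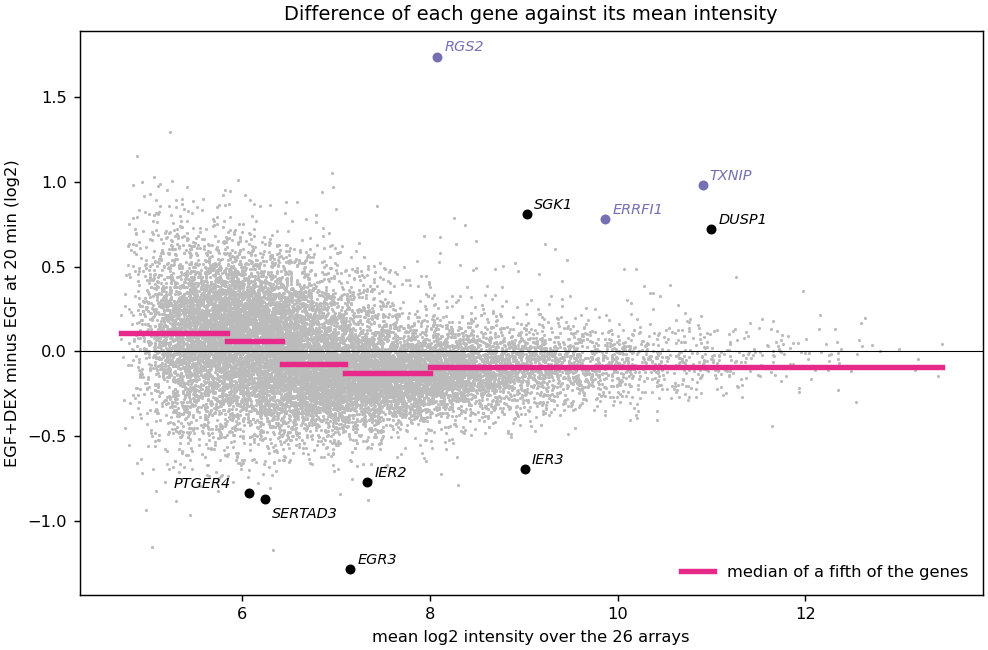
EGF+DEX minus EGF at 20 min (log2, vertical axis) against the mean log2 intensity over the 26 arrays (horizontal axis) for 16600 genes. Thick lines are the medians of the 5 intensity bins, from 0.11 to −0.13, and RGS2, TXNIP and ERRFI1 (violet) are the genes that passed the test.

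At 20 min, EGF+DEX gave a higher level than EGF alone for 3 genes, and for none a lower level at the threshold. They were RGS2, a regulator that speeds the shut-off of G protein signalling, TXNIP, which binds thioredoxin and restrains glucose uptake, and ERRFI1 (also called MIG6), which binds the EGFR kinase domain and inhibits it. This is 0.0181% of the 16600 genes tested. An unadjusted p under 0.05 was reached by 2305 genes (13.9%), 1140 of them higher (6.87%) and 1165 lower (7.02%). These shares changed when 1 EGF+DEX array was left out, and were smaller without replicate 2 (given with the lists below).

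RGS2 read 6.45 and 6.46 on the EGF arrays and 8.17 and 8.21 on the EGF+DEX arrays. The difference was 1.74 ± 0.12 (SE, n = 2 and 2; 3.33-fold; limma, adjusted p = 6.63e-07). Untreated cells read 6.56 and 6.62. In such bulk samples a higher level in each cell and a larger number of cells with the transcript cannot be told apart. All 12 probesets of RGS2 were higher with EGF+DEX on both arrays than on either EGF array, with differences of 1.09 to 3.16. It was called under each of the 15 alternatives run for single genes, with adjusted p from 8.14e-08 to 0.00680.

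TXNIP read 10.14 and 9.85 with EGF and 11.06 and 10.89 with EGF+DEX, a difference of 0.98 ± 0.15 (limma, adjusted p = 0.0274). ERRFI1 read 9.08 and 9.04 with EGF and 9.98 and 9.69 with EGF+DEX, a difference of 0.78 ± 0.12 (limma, adjusted p = 0.0406). The arrays of the groups did not overlap for either gene. All 15 TXNIP probesets and all 11 ERRFI1 probesets were higher on average with EGF+DEX, 14 and 10 of them without overlap. Each sat near the threshold. Both lost their call with only the 8 arrays of untreated cells and 20 min and with only the 4 arrays compared. They also lost it at a fold minimum of 2, and ERRFI1 with the replicate number as a block. The adjusted p of TXNIP lay between 0.00639 and 0.249 over the alternatives, and it was lost without EGF replicate 2 (0.110), without EGF+DEX replicate 1 (0.0772) and without EGF+DEX replicate 2 (0.115). That of ERRFI1 lay between 0.00928 and 0.266, and it was lost without any 1 of the 4 arrays (0.0572 to 0.111).

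**Figure D2:**
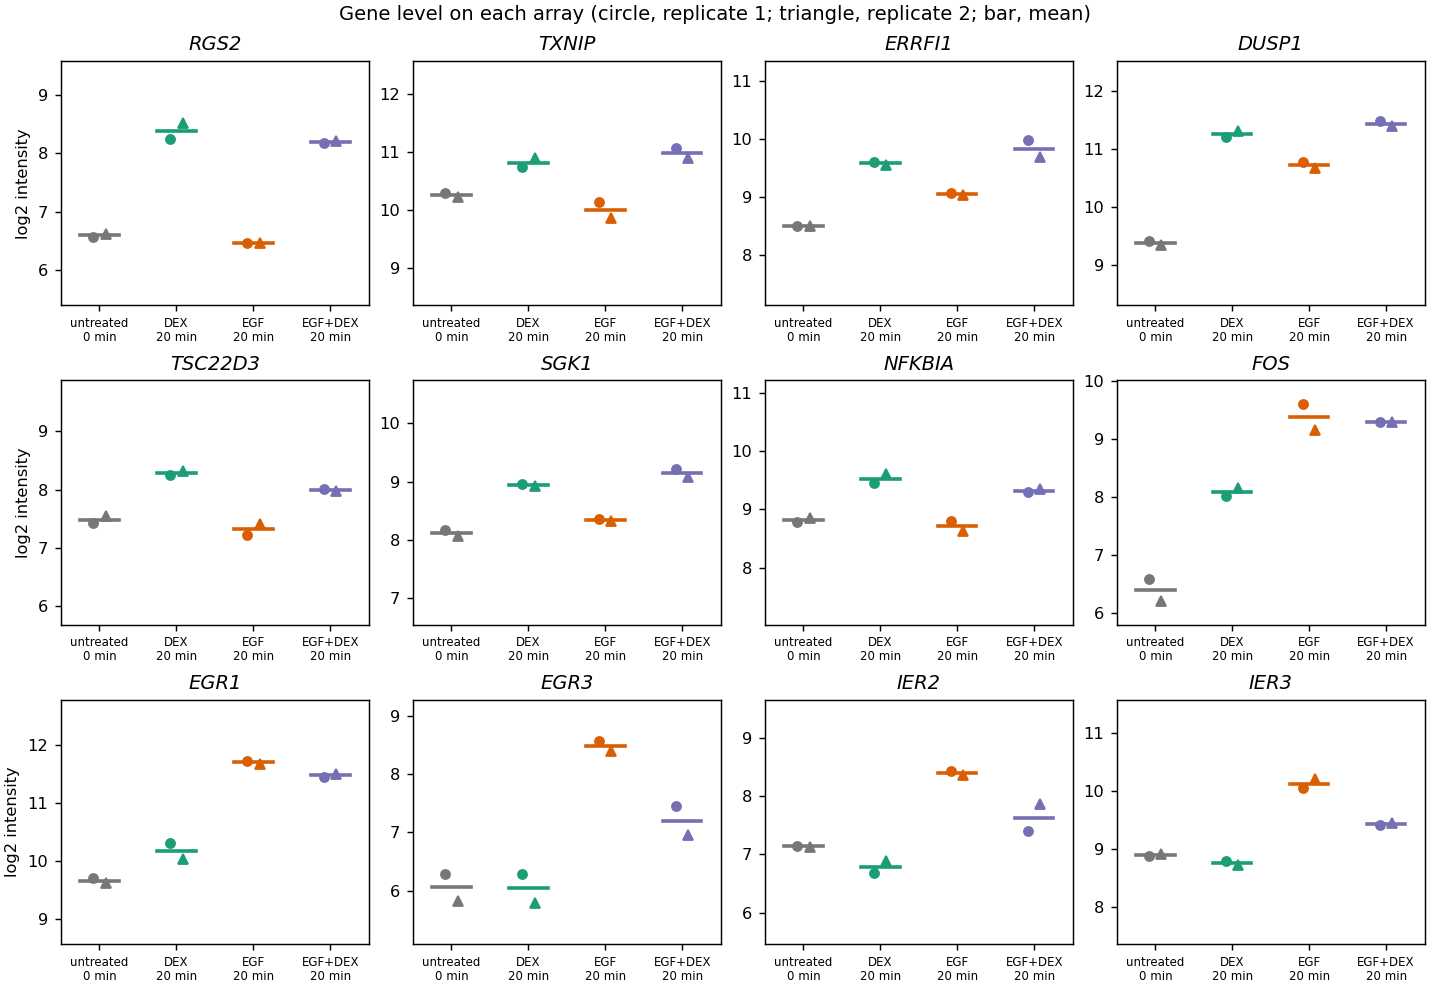
Gene level (log2 intensity, vertical axes) on each array of untreated cells and of DEX, EGF and EGF+DEX at 20 min (horizontal axes), with circles for replicate 1, triangles for replicate 2 and bars for the mean of 2 arrays. RGS2 sits between 8.17 and 8.52 on the 4 arrays with DEX and between 6.45 and 6.62 on the 4 without, while EGR3 and IER3 are high with EGF and lower with EGF+DEX.

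The 3 called genes all lie on chromosome 1. The 250 bases before each start (RefSeq, GRCh38.p14) are shown to set them beside those of DUSP1, a GR target that EGF also raises, and EGR1, an immediate early gene that EGF raised. All 5 genes matched the RefSeq promoter table. Capitals mark matches, on either strand, to 6 motifs: the consensus glucocorticoid response element (AGAACA and TGTTCT parted by 3 bases), its single arm AGAACA, the cAMP response element TGACGTCA, its single arm TGACG, the CArG box bound by serum response factor, and the TATA box TATAAA.
RGS2 (chr1:192808789-192809038, plus strand): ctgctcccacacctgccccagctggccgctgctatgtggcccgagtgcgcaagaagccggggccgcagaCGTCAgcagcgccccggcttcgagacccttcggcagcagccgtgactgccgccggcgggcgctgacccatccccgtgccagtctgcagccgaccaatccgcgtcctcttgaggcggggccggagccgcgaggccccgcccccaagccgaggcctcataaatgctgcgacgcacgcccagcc
TXNIP (chr1:145996580-145996829, minus strand): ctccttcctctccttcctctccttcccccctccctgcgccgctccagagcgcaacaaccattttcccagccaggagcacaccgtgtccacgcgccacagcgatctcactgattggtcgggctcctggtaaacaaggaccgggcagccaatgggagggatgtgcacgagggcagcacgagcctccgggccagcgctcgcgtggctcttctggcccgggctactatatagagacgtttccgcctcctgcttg
ERRFI1 (chr1:8026310-8026559, minus strand): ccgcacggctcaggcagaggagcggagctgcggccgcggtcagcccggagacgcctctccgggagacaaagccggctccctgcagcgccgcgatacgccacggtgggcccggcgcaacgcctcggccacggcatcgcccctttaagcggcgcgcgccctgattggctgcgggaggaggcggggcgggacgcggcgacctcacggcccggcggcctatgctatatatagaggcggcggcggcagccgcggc
DUSP1 (chr5:172771196-172771445, minus strand): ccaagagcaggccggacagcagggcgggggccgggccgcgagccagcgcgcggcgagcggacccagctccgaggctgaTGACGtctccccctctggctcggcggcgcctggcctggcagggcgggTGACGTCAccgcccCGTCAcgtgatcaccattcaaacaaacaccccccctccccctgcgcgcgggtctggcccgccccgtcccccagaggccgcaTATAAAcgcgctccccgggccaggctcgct
EGR1 (chr5:138465229-138465478, plus strand): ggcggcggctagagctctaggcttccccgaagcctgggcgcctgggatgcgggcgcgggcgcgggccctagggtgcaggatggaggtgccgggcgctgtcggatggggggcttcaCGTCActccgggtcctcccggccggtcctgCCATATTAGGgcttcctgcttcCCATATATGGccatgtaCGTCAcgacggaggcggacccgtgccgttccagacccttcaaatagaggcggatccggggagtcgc
None of the 5 held the consensus response element or its single arm in this window. In 27305 promoters of the same length the consensus was found in 0.00366% and the arm AGAACA in 12.4%. The arm TGACG was found once in RGS2, 4 times in DUSP1, where 2 of the matches make up its single TGACGTCA, and 2 times in EGR1, against 21.7% of promoters with at least 1 match (1.77% for TGACGTCA). EGR1 held 2 CArG boxes, found in 1.14% of promoters, and DUSP1 a TATAAA, found in 11.1%. A match is a description of the letters and not of binding.

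Of the 36 measured genes of a list of GR targets, 2 were called higher (RGS2 and TXNIP) and none lower. This list, like the other gene lists below, was chosen with earlier results of these data known. Its shares are therefore a description and not an independent test. At an unadjusted p under 0.05, 10 of the 36 were higher (27.8%, against 6.87% of all genes) and 0 lower (against 7.02%). In 19 of them both EGF+DEX arrays stood above both EGF arrays, and in 2 below, against 18.6% and 26.3% of all genes. The list median was 0.16, where the median of the brightest bin, in which the list's own median level of 8.09 lies, was −0.09. Without EGF+DEX replicate 2, 8 were higher (22.2%, against 2.49%), without replicate 1 10 (27.8%, against 8.04%), and after cyclic loess normalization, which removes the relation to intensity, 12 (33.3%, against 6.05%).

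The members that came nearest to the threshold are among the best known GR targets, and none of them passed. TSC22D3 (GILZ), a leucine zipper protein that mediates effects of glucocorticoids, read 7.23 and 7.40 with EGF and 8.002 and 7.98 with EGF+DEX (difference 0.68 ± 0.12, limma, adjusted p = 0.108). SGK1, a kinase that controls ion channels and transporters, read 8.35 and 8.31 against 9.21 and 9.07 (0.81 ± 0.16, 0.120). NFKBIA, the inhibitor that holds NF-κB in the cytoplasm, read 8.80 and 8.63 against 9.30 and 9.35 (0.61 ± 0.12, 0.133). In each, both EGF+DEX arrays were above both EGF arrays, and 15 of 17 probesets of TSC22D3, 18 of 21 of SGK1 and 10 of 10 of NFKBIA were higher. CDKN1C, a cyclin-dependent kinase inhibitor, had a difference of 0.68 (adjusted p = 0.163), PDK4, a kinase that inhibits pyruvate dehydrogenase, 0.50 (0.227), and GLUL, glutamine synthetase, 0.48 (0.233). FKBP5, a chaperone partner of GR, had a difference of 0.06 and PER1, a clock gene, −0.15, so well-known targets were not all higher at this time.

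DUSP1, a phosphatase that inactivates MAP kinases, read 10.76 and 10.66 with EGF and 11.47 and 11.39 with EGF+DEX, without overlap, and all 9 of its probesets were higher without overlap. Its difference of 0.72 ± 0.22 did not pass (limma, adjusted p = 0.222). Untreated cells read 9.41 and 9.34, so DUSP1 was higher with EGF alone by 1.33 (limma, adjusted p = 0.0116) and with EGF+DEX by 2.05 (adjusted p = 0.000168).

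For the other genes that limit EGFR and ERK signalling the values went both ways. Of 33 measured, ERRFI1 was the only gene called. At an unadjusted p under 0.05, 3 were higher (9.09%, against 6.87%) and 6 lower (18.2%, against 7.02%). The higher were ERRFI1, DUSP1 and DUSP8. The 6 lower were DUSP5 (−0.54), DUSP14 (−0.48), DUSP4 and ZFP36 (−0.47 each), DUSP16 (−0.35) and CBL (−0.29), and 2 of the 33 were lower without EGF+DEX replicate 2 (6.06%, against 1.69%), 6 without replicate 1 (18.2%, against 10.5%) and 4 after cyclic loess (12.1%, against 5.37%). SPRY4, a Sprouty inhibitor of ERK activation, read 7.56 and 8.06 with EGF and 7.40 on each EGF+DEX array (−0.41 ± 0.25, adjusted p = 0.458), and ZFP36L2, a protein that destabilises mRNAs, differed by −0.03 ± 0.19.

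The EGFR family ligands showed no call among 10 measured. HBEGF, a ligand that EGF induces, read 7.51 and 7.69 with EGF and 7.32 and 7.22 with EGF+DEX, a difference of −0.33 with a 95% interval of −0.67 to 0.02. At 40 and 60 min the difference of HBEGF was −1.17 and −1.63 (limma, adjusted p = 0.00212 and 3.41e-05), on other arrays. EREG differed by −0.16 (interval −0.63 to 0.30), TGFA by −0.24 and NRG1 by −0.12 at 20 min. NRG4 (0.52) and EPGN (0.48) had the largest differences of the list, both positive, and 1 of the 10 was higher at an unadjusted p under 0.05 (10%, against 6.87%) and 0 lower.

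DEX alone was measured at 20 min on arrays that the EGF+DEX comparison does not use. Against untreated cells, 4 genes were called, all higher (0.0241% of genes): DUSP1 by 1.87 ± 0.22 (limma, adjusted p = 0.000852), RGS2 by 1.79 ± 0.12 (3.94e-07), ERRFI1 by 1.08 ± 0.12 (0.000827) and TSC22D3 by 0.81 ± 0.12 (0.0166). RGS2 and ERRFI1 were thus called in both comparisons. The untreated arrays are of 0 min, so time and DEX cannot be told apart in the comparison without EGF. For RGS2 the DEX effect was 1.74 with EGF and 1.79 without, a difference of −0.06 ± 0.17. For SGK1 (0.81 and 0.83) and NFKBIA (0.61 and 0.71) the values were also close, with a difference of −0.02 for SGK1 and −0.11 for NFKBIA. Across the 16600 genes the DEX effects with and without EGF correlated only weakly (Pearson 0.114, Spearman 0.105), a description across genes, which are not independent replicates.

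**Figure D3:**
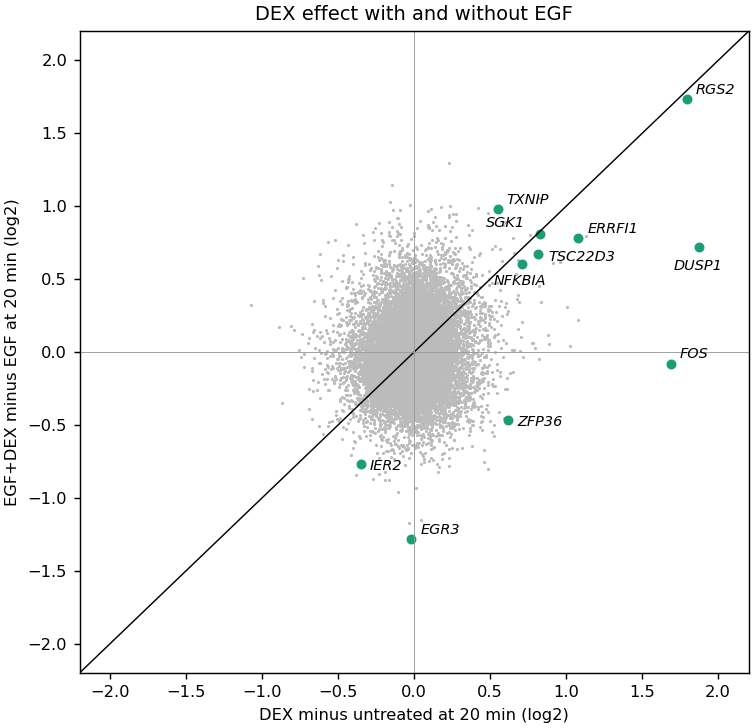
EGF+DEX minus EGF (vertical axis) against DEX minus untreated (horizontal axis) at 20 min, in log2, for 16600 genes, with named genes in green and the line of equal effects. RGS2 lies close to the line, and DUSP1 (1.87 without EGF and 0.72 with) and FOS (1.69 and −0.08) lie to the right of it.

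A test of the difference between the DEX effects called no gene among 16600 (0%). It gave 1194 genes (7.19%) an unadjusted p under 0.05, and the smallest adjusted p was 0.619. The 3 genes with the smallest p were ZFP36, a protein that destabilises cytokine mRNAs (−1.08 ± 0.23), PUM3, an RNA-binding protein (−0.89 ± 0.20), and MMD (−0.97 ± 0.23). ZFP36 read 9.42 and 9.43 with EGF and 9.04 and 8.87 with EGF+DEX, and 7.75 and 7.65 untreated and 8.28 and 8.35 with DEX. Its difference was 0.62 for DEX alone (adjusted p = 0.581) and −0.47 for DEX added to EGF (adjusted p = 0.266). FOS, subunit of AP-1, differed by −1.77 ± 0.46 and DUSP1 by −1.15 ± 0.31 (adjusted p = 0.619 for each). For both genes the untreated level was the lowest, and the level with EGF was already above it: FOS read 6.59 and 6.22 untreated, 8.02 and 8.16 with DEX, 9.59 and 9.15 with EGF and 9.29 and 9.29 with both.

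The genes that EGF induces were chosen from group means that do not include the 4 arrays compared. The p-values of this choice use the spread pooled over groups, to which these 4 arrays contribute. Genes of small pooled spread pass more easily in both places, so the shares below are not independent of the choice. The set is the 91 genes called higher with EGF at 40 or 60 min against untreated cells. Against untreated cells at 20 min, 21 genes in all were called higher with EGF (0.127%) and 17 with EGF+DEX (0.102%). The mean difference of the 91 from untreated cells was 0.68 with EGF and 0.51 with EGF+DEX, and their median difference was −0.17. Of the 91, 70 had a negative difference and 21 a positive one, against 58.4% and 41.6% of all genes. At an unadjusted p under 0.05, 22 were lower (24.2%, against 7.02% of all genes) and 2 higher (2.2%, against 6.87%). ERRFI1 was the only one called, and none was called lower. Their median level of 7.69 lies in the second brightest bin. There the median difference of all genes was −0.13, and 308 of 3320 genes were lower at an unadjusted p under 0.05. Without EGF+DEX replicate 2, 10 were lower (11%, against 1.69%), without replicate 1 14 (15.4%, against 10.5%), and after cyclic loess normalization 13 (14.3%, against 5.37%). The gap to all genes was therefore smallest without EGF+DEX replicate 1. The 20 min EGF and EGF+DEX values share the untreated arrays.

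**Figure D4:**
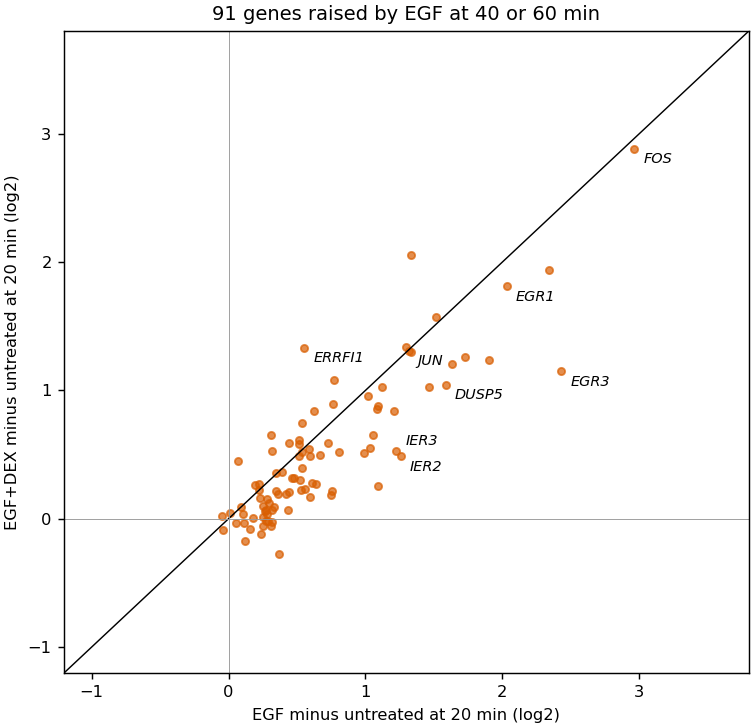
EGF+DEX minus untreated (vertical axis) against EGF minus untreated (horizontal axis) at 20 min, in log2, for the 91 genes raised by EGF at 40 or 60 min. Points below the line, 70 of 91, had a lower level with EGF+DEX than with EGF, EGR3 farthest, and ERRFI1 lies above it.

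The members of this set differed among themselves. Both EGF+DEX arrays stood below both EGF arrays in 47 of the 91 and above in 6, against 26.3% and 18.6% of all genes. EGR3, which had the highest mean rise with EGF over 40 and 60 min, had the lowest difference of the set. EGR1 read 11.72 and 11.66 with EGF and 11.44 and 11.50 with EGF+DEX, against 9.70 and 9.61 untreated. Its difference was −0.22 ± 0.30, without a call and without overlap of the arrays. Of its 16 probesets, 15 were lower, 13 of them without overlap. Other genes of the set had values near 0. FOS differed by −0.08 ± 0.33, DUSP6, an ERK phosphatase, by 0.06 ± 0.38 and JUN by −0.01, and the arrays overlapped in all 3. FOSL1, another AP-1 subunit, differed by −0.23, CCN2, a secreted matrix protein, by −0.41, NR4A1, an orphan nuclear receptor, by −0.42, and PTGS2, which makes prostaglandin precursors, by −0.44, all without a call and without overlap of the arrays.

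The 31 measured immediate early transcription factors had a median of −0.14. At an unadjusted p under 0.05, 5 were lower (16.1%, against 7.02%) and 1 higher (3.23%, against 6.87%), and none was called. The 5 lower were EGR3 (−1.28), IER2 (−0.77), JUNB (−0.48), NR4A1 (−0.42) and KLF10 (−0.37), and the higher was NR4A3 (0.30). EGR3, an early growth response factor, read 8.57 and 8.41 with EGF and 7.46 and 6.95 with EGF+DEX, where untreated cells read 6.29 and 5.82. Its difference of −1.28 ± 0.35 was the lowest of all genes (limma, adjusted p = 0.196). All 6 EGR3 probesets were lower, 5 of them without overlap. IER2, a nuclear protein of the immediate early response, read 8.43 and 8.37 with EGF and 7.40 and 7.86 with EGF+DEX (−0.77 ± 0.20, 0.176). Without EGF+DEX replicate 2, 3 of the 31 were lower (9.68%, against 1.69% of all genes). Without EGF+DEX replicate 1 it was also 3 (9.68%), below the share of all genes (10.5%), and after cyclic loess normalization 4 (12.9%, against 5.37%).

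Other genes of the set were also lower on both EGF+DEX arrays without passing the test. IER3, an early response gene that protects cells from death, read 10.05 and 10.20 with EGF and 9.41 and 9.44 with EGF+DEX, against 8.88 and 8.91 untreated (−0.69 ± 0.23, limma, adjusted p = 0.256), and all 6 of its probesets were lower. CCN1, a secreted matrix protein, read 8.58 and 8.76 against 7.95 and 8.06 (−0.66 ± 0.20, 0.216). PTGER4, a receptor for prostaglandin E2, read 6.72 and 7.08 against 6.11 and 6.02 (−0.83 ± 0.21, 0.176). SERTAD3, a gene outside the set, read 7.12 and 6.91 against 6.14 and 6.14 (−0.87 ± 0.19, 0.148), with 6.59 and 6.34 untreated. IER3 was called lower at 40 min (−1.09, adjusted p = 0.0332) and at 60 min (−1.40, 0.00720), and IER2 (−1.25, 0.00493) and SERTAD3 (−1.05, 0.0153) at 60 min. PTGER4 differed by −0.26 at 40 and 0.12 at 60 min, and EGR3 by −0.10 and −1.38.

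Genes that DEX alone changed at 40 or 60 min were set against the 20 min arrays in the same way, with the same limit from the pooled spread. Of the 78 raised by DEX, 59 had a positive difference at 20 min, as did 41.6% of all genes, and 3 were called higher (RGS2, TXNIP and ERRFI1). At an unadjusted p under 0.05, 22 were higher (28.2%, against 6.87%) and 1 lower. The median was 0.16, against −0.13 in the bin of their median level, 7.51. Of the 51 lowered by DEX, 42 had a negative difference, as did 58.4% of all genes, and none was called. At an unadjusted p under 0.05, 19 were lower (37.3%, against 7.02%) and 1 higher. The median was −0.24, against −0.07 in the bin of their median level, 6.91. Without EGF+DEX replicate 2 the lower count was 6 of 51 (11.8%, against 1.69%), while 20 of the 78 were higher (25.6%, against 2.49%). Without EGF+DEX replicate 1 these counts were 16 of 51 (31.4%, against 10.5%) and 14 of 78 (17.9%, against 8.04%). The 17 genes lowered by EGF had a median of 0.03 and no member under 0.05 in either direction.

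The later arrays place the 20 min values at the start of a longer course. EGF+DEX minus EGF called 47 genes higher (0.283%) and 154 lower (0.928%) at 40 min and 34 higher (0.205%) and 19 lower (0.114%) at 60 min, in all 1.21% and 0.319% of genes. RGS2 differed by 2.85 and 2.91 at these times, TXNIP by 1.68 and 1.95, and ERRFI1 by 1.64 and 1.45, and all 3 were called at each. SGK1 (1.62 and 1.77), TSC22D3 (1.36 and 1.503) and PDK4 (1.79 and 2.06) were called at 40 and 60 min. DUSP1 differed by 0.51 at 40 min and 1.19 at 60 min (limma, adjusted p = 0.193 and 0.0210). GDF15, a stress-induced cytokine, differed by −0.37 at 20, −0.60 at 40 and −1.35 at 60 min. IL1B differed by −0.12 at 20 min and 0.22 and −0.60 at 40 and 60 min, with 1 array a group showing −1.79 at 120 and −1.83 at 240 min.

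**Figure D5:**
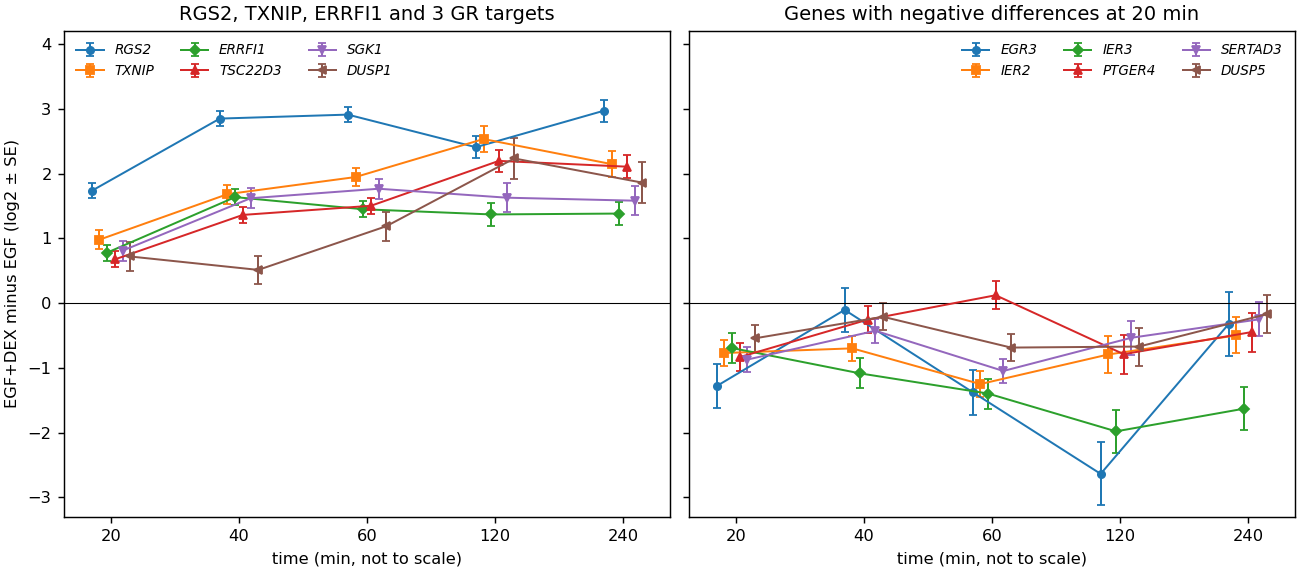
EGF+DEX minus EGF (log2, vertical axis) at 5 times (horizontal axis, not to scale) for 12 genes, with bars for the SE of the model (2 arrays a group to 60 min, 1 after that). RGS2 stands at 1.74 at 20 min and near 2.9 at 40 and 60 min, and IER3 moves from −0.69 at 20 min to −1.40 at 60 min.

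The other lists held no call at 20 min. Their counts at an unadjusted p under 0.05 are read against 6.87% higher and 7.02% lower of all genes. The cytokines and chemokines had 2 higher (7.41%) and 3 lower (11.1%) of 27. IL6 (−0.68) and CCL20 (0.80) had the largest differences, and both lie in the dimmest bin. Over the alternatives IL6 lay between −0.81 and −0.083 and CCL20 between 0.46 and 1.00. The NF-κB regulators and targets had 3 higher (15%) and 2 lower (10%) of 20. The genes of migration and matrix proteolysis had 0 higher and 3 lower (10.7%) of 28. The cytoskeletal genes under serum response factor and the heat shock and stress genes each had 1 higher and 1 lower of 16 (6.25%). The circadian clock genes had 1 higher of 18 (5.56%) and the ERBB and steroid hormone receptors 1 higher of 9 (11.1%), and neither had one lower. EGFR itself differed by 0.03 ± 0.15 and NR3C1, which encodes GR, by −0.12 ± 0.14. Of 19 cell cycle genes, 3 were lower (15.8%, against 7.02%), but only 1 after cyclic loess normalization (5.26%, against 5.37%) and 1 without EGF+DEX replicate 2 (5.26%, against 1.69%), with CDKN1B, a cyclin-dependent kinase inhibitor, at −0.72 ± 0.16 (limma, adjusted p = 0.163). CDKN1B read 8.67 and 8.72 with EGF, 8.33 on EGF+DEX replicate 1 and 7.62 on replicate 2. Of the marker lists, 1 of 9 luminal markers was lower (11.1%) and 2 of 11 mesenchymal markers were higher (18.2%). The 2 were COL1A2 and COL3A1, both in the second dimmest bin, where 411 of 3320 genes were higher at this p. None of 10 basal epithelial or of 8 leukocyte and endothelial markers reached this p in either direction. BCL3, BCL6, VAV3, IGFBP3 and MAOA differed by −0.07, 0.10, 0.09, 0.10 and 0.14 at 20 min.

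Beside the 3 called genes, the rule for naming the largest differences filled the places with genes that did not pass, several with larger differences than TXNIP and ERRFI1. RBMY1E (1.29), a member of a family of near-identical copies, LOC158434 (1.15), LOC100133920 (1.05), NOVA1 (1.03), IL25 (1.01), STYK1 (1.00) and TCL1A (1.00) were among the highest, and all except LOC100133920 lie in the 2 dimmest bins, whose median differences were above 0. Single low EGF arrays carried NOVA1, IL25 and TCL1A: the difference was 0.30 for NOVA1 and 0.59 for TCL1A without EGF replicate 2, and 0.48 for IL25 without EGF replicate 1. RBMY1E read 4.31 on each EGF array, against a background of 4.65, and 5.47 and 5.73 with EGF+DEX. Its difference ranged from 0.14 to 1.42 over the alternatives. LOC100133920 read 6.19 and 6.84 with EGF and 7.48 and 7.66 with EGF+DEX and was called at 40 min (1.37) and 60 min (1.35). Beside EGR3, SERTAD3 and PTGER4, the lowest differences included those of SLC16A6 (−1.15), CKMT1B (−0.96), LINC00472 (−0.88), GOLGA8A (−0.88), SNORA21 (−0.84) and USP41P (−0.82). In SLC16A6, CKMT1B, GOLGA8A and USP41P the low value came from EGF+DEX replicate 2: GOLGA8A read 7.79 and 7.47 with EGF, 7.33 on replicate 1 and 6.17 on replicate 2.

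Exon use was compared by asking whether single probesets departed from the rest of their gene between EGF+DEX and EGF. At an adjusted p under 0.05 and a departure of at least 1, 1984 genes (12% of those tested) were called, 679 of them through 1 probeset, with AP2A1, a subunit of the clathrin adaptor AP-2, giving the lowest adjusted p (limma diffSplice, 1.34e-14), followed by ASS1, PRPF8, SLC6A10P and PRSS12. TXNIP was the only gene called both here and by its level. RGS2 (0.0543) and ERRFI1 (0.0599) did not pass. NRG1 was called here (limma diffSplice, adjusted p = 0.0308), with 2 of its 33 probesets departing by at least 1. This count changed with any 1 of the compared arrays left out, most without EGF+DEX replicate 2. Each time, part of the 1984 genes was no longer called. The same test called 292 genes (1.76%) for DEX against untreated cells at 20 min and 569 (3.43%) for EGF+DEX against EGF at 40 min. Of these, 45 and 115 were among the 1984. Of the 4248 departing probesets, 79.3% were dimmer than the median probeset (7.05), with a median of 5.75.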

How the data were processed

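The series holds 26 exon arrays of MCF10A cells in 16 groups of treatment and time, 10 of them with 2 arrays and 6 with 1. The authors deposited linear probeset intensities, made with Expression Console. Its version and the summary and background methods were not given in the sources used here. The table holds 844005 probesets with values from 1 to 19500. Intensities were put on the log2 scale with no further normalization, since array quartiles differed by at most 0.0971. No depth applies to arrays, so precision is limited by their number.

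The platform annotation gave 1 symbol to 354421 probesets, several to 14891 and none to 474693. Probesets with 1 symbol and a level above 4.65, the median of those with no symbol, were kept, and genes with at least 3 were summarised by median polish (16600 genes, 259048 probesets). A limma model (limma 3.58.1, R 4.3.3) with a mean for each group was fitted to all 26 arrays, with 10 residual degrees of freedom, and p-values were adjusted by the Benjamini-Hochberg method. Genes were called at an adjusted p under 0.05 and a fold change of at least 1.5. Exon use was tested with diffSplice. The model and the exon test were run on simulated data. The exon simulation gave every probeset the same noise, so it cannot tell how the exon test behaves where noise differs between probesets.

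Named genes were the called genes, filled to 10 in each direction with the largest differences at an unadjusted p under 0.05 without overlap of the arrays, genes the study discusses, the leading members of 16 gene lists, the 3 genes with the smallest p for the interaction, the 5 with the lowest p for exon use and the 10 that EGF raised most at 40 and 60 min. Further genes in the text were chosen after their values were seen. The members and lists were chosen with earlier results of these data known. Alternatives covered the filter, normalization, summary, fold minimum, arrays in the fit, the replicate number as a block and leaving out each array. Cyclic loess normalization and the counts of list members without an EGF+DEX array were added after seeing the data. Plots were drawn with matplotlib 3.10.9.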

Additional observations from a re-analysis of the deposited data

Results flagged for a closer look

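Probesets with no gene symbol entered no gene value. Among the 237346 of them above background, 42 passed the same test for EGF+DEX against EGF at 20 min (limma, adjusted p under 0.05 and at least 1.5-fold), 38 higher and 4 lower, and 27251 (11.5%) had an unadjusted p under 0.05. For DEX against untreated cells 29 passed. They were looked at again because they lie outside the gene-level measurement, and their genes are unnamed here.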

How the results depend on the processing

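With 2 arrays a group, the number of arrays limits what could be seen, and the gene values were kept as they were when an array was left out. The 3 genes called for EGF+DEX against EGF became 6 with the mean of the probesets, 5 after cyclic loess normalization (added after seeing the data) and 1 with a fold minimum of 2, with only the 8 arrays of untreated cells and 20 min, or with only the 4 arrays compared. They ranged from 1 (without EGF+DEX replicate 2) to 12 (without EGF+DEX replicate 1, 9 of them lower) when 1 array was left out, and were 8 without either EGF array. RGS2 was called throughout. With the replicate number as a block, 2 genes were called (RGS2 and TXNIP), since ERRFI1 had an adjusted p of 0.0508. The samples share only a number, and their deviations correlated at 0.128. DEX against untreated cells gave 8 calls in place of 4 with the stricter filter. The interaction gave 0 to 1 calls when 1 array was left out, 1 without untreated replicate 1 and 1 without EGF replicate 2. The 1984 genes with changed exon use became 713 with a minimum departure of 2, 1153 with the stricter filter and 384 to 2992 with 1 array left out (2992 without EGF replicate 2).

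The median difference of the genes raised by EGF, −0.17, was −0.12 with the mean of the probesets, −0.10 after cyclic loess and −0.22 for genes chosen at a fold minimum of 2, and lay between −0.22 and −0.15 with 1 array left out. That of the genes raised by DEX, 0.16, was 0.28 at a fold minimum of 2 and lay between 0.074 (without EGF replicate 2) and 0.22. That of the genes lowered by DEX, −0.24, was −0.37 at a fold minimum of 2 and lay between −0.31 and −0.19. The causes were not tested.

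Of the single-gene results, 1080 kept direction and side of the threshold, 14 lost and 6 gained a call, and 25 turned direction, none of them in a called gene. With the mean of the probesets, ZFP36L2 was 0.028 and FOS 0.052. After cyclic loess, ZFP36L2 was 0.026, NRG1 0.0019, IL1B 0.0028, BCL3 0.054, NR3C1 0.0026 and FOS 0.038. With no filter, VAV3 was −0.0094 and PGR 0.29. With 1 array left out, the differences ranged from −0.19 to 0.14 for ZFP36L2, −0.26 to 0.021 for IL1B, −0.17 to 0.032 for BCL3, −0.20 to 0.37 for VAV3, −0.085 to 0.29 for BCL6, −0.13 to 0.19 for EGFR, −0.28 to 0.051 for NR3C1, −0.81 to 0.16 for FILIP1L, −0.66 to 0.20 for PGR, −0.98 to 0.056 for CDC6, −0.24 to 0.37 for DUSP6 and −0.30 to 0.14 for FOS.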
